A study of Mus musculus with 2 samples.

Results

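The mitochondrial genome transcripts are the 37 genes whose symbol begins with mt-, chosen by name alone, of 55536 annotated genes in the gene table. They comprise 13 mRNAs, 2 rRNAs and 22 tRNAs, 28 on the plus strand and 9 on the minus strand of the mitochondrial chromosome. The libraries hold cytosolic RNA, with ribosomal RNA removed, from C57BL/6J bone-marrow-derived macrophages. All cells had received 100 ng/ml of Lipid A, the membrane anchor of bacterial lipopolysaccharide and ligand of Toll-like receptor 4, for 75 minutes, so there was 1 group of 2 libraries, each from 1 µg of RNA. The labels number the libraries as biological replicates 1 and 2, list 1 donor identifier for both and leave unsaid whether animals or cultures were separate, so the SD may be partly technical. Nor do they say whether mitochondria were removed from the fraction. With 1 group and 2 libraries no test exists, and no p-value is given.

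Mitochondrial DNA encodes core subunits of the respiratory chain and of ATP synthase, together with the rRNAs and tRNAs needed to translate them inside the organelle. Both strands are transcribed into long precursors, and tRNAs that lie between the other genes mark where the precursors are cut. Macrophages stimulated through Toll-like receptor 4 are known to move towards glycolysis and to change how they use the respiratory chain.

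The 37 genes took 0.411% of all counts in replicate 1 and 0.764% in replicate 2, a mean of 0.587% ± 0.249 (SD, n = 2). The counts are estimated fragments per gene, and library totals over genes were 55596625 and 50157146. In TPM, which corrects for length and is scaled to a fixed sum, mitochondrial genes took 0.513% ± 0.243, and 0.816% with the near-identical nuclear copies described below. In counts, mRNAs made up 99.7% ± 0.0233 of the mitochondrial total, rRNAs 0.265% ± 0.0233 and tRNAs 0%. A second deposited quantification, made directly from the reads, put mitochondrial genes at 0.596% ± 0.232 of counts, of which 99.2% were mRNA, 0.635% rRNA and 0.118% tRNA. Its share of TPM was lower than in the first, 0.229% ± 0.0672. The libraries carried macrophage markers: 9 of 9, among them Lyz2, were at 1 TPM or more. Of 6 neutrophil markers 3 were, and of 13 markers of T and NK cells, B cells, erythroid cells and stromal cells none was.

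The genes are packed tightly in the GENCODE annotation of mm10. Of 36 neighbouring pairs 9 share bases, 25 have 0 to 3 bases between them, and the widest gap is 32 bases, between mt-Tn and mt-Tc. Of the 15 mRNA and rRNA genes 14 adjoin a tRNA gene, and mt-Atp6 is the exception. Where mRNAs share bases, a fragment from the shared stretch can be assigned to either gene, so the longer stretches are shown here from the GENCODE transcripts. The remaining pair of mRNAs, mt-Atp6 and mt-Co3, shares 1 base. mt-Atp8 and mt-Atp6, subunits of ATP synthase, share 43 bases (chrM:7927-7969, plus strand), given whole with the first codon of mt-Atp6 and the stop codon of mt-Atp8 in capitals. mt-Nd4l and mt-Nd4 share 7 bases, in capitals at the end of mt-Nd4l (chrM:10134-10173, plus strand). mt-Nd5 and mt-Nd6 overlap by 14 bases on opposite strands, in capitals at the end of each (chrM:13526-13565, plus strand, and chrM:13552-13591, minus strand).
mt-Atp8 and mt-Atp6: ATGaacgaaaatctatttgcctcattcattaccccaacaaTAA
mt-Nd4l: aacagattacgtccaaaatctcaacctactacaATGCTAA
mt-Nd5: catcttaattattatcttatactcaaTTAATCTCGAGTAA
mt-Nd6: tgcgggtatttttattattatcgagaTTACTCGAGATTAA

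In 3 of the 13 mRNAs, mt-Co3, mt-Nd4 and mt-Cytb, the annotated gene ends in an incomplete stop codon, a T that polyadenylation is known to complete. Their last 40 bases are printed to show it, with that T in capitals (chrM:9351-9390, chrM:11505-11544 and chrM:15249-15288, all plus strand).
mt-Co3: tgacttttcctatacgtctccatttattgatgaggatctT
mt-Nd4: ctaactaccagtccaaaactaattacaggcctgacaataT
mt-Cytb: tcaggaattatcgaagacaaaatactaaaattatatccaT

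Near-identical nuclear pseudogenes matched 7 mRNAs and held a large part of the counts of some of them. An alignment of all annotated transcripts to the 37 mitochondrial ones found 23 genes elsewhere in the genome that match over 100 bases or more, and 7 of them match at 99% or more. All 7 lie on the minus strand of chromosome 1, within 4663 bases from 24611535 to 24616197 (mm10), in the order of their counterparts between 6390 and 11042 on the mitochondrial chromosome. In this order they are Gm29216 (mt-Co1), Gm28661 (mt-Co2), Gm10925 (mt-Atp6), Gm28437 (mt-Co3), Gm28438 (mt-Nd3), Gm10222 (mt-Nd4l) and Gm28439 (mt-Nd4). Aligned stretches ran from 294 bases in mt-Nd4l to 876 bases in mt-Nd4, and 5 of the 7 copies had no mismatch. The other 16 copies, below 99%, held 24.2 counts together in replicate 1 and 48.6 in replicate 2. Only annotated transcripts were searched, so an mRNA without a copy means here one without an annotated near-identical copy. mt-Atp8 is one of these, though it lies between mt-Co2 and mt-Atp6, which both have a copy. Whether unannotated nuclear sequence matches it was not tested.

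Since the division of reads rests on so few bases, the places where copy and gene differ are shown, with the differing base in capitals. mt-Nd3 and Gm28438 differ over 345 bases by T3C, counted from 1 at the 5′ end of the mitochondrial transcript with its base first (chrM:9459-9481, plus strand, and chr1:24613097-24613119, minus strand). mt-Co1 and Gm29216 differ over their aligned 483 bases by A1066T (chrM:6373-6413, plus strand, and chr1:24616165-24616197, minus strand). That alignment starts at base 1063 of mt-Co1. Bases printed before it lie outside the alignment and differ at further places, left in lower case. Gm28661 is identical to mt-Co2 over 681 bases and its annotation ends where the stop codon of mt-Co2, in capitals, begins (chrM:7667-7696, plus strand, and chr1:24614885-24614914, minus strand).
mt-Nd3: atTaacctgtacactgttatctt
Gm28438: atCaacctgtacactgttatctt
mt-Co1: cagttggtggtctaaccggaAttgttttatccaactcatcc
Gm29216: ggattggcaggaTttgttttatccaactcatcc
mt-Co2: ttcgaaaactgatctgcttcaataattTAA
Gm28661: tatttcgaaaactgatctgcttcaataatt

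The copies took 41.0% of the summed counts of these 7 mRNAs and their copies in replicate 1 and 41.6% in replicate 2. In the second quantification they took 26.5% in each library. How much of a pair went to the copy differed widely between genes, and between quantifications for the same gene. Gm28661 held 98.6% and 98.0% of the counts of the mt-Co2 pair in the first quantification, and 92.4% and 92.1% in the second. Gm10925 held 93.6% and 91.2% of the mt-Atp6 pair in the first, but 2.23% and 1.81% in the second. Counts of the mt-Co1 and mt-Nd4 pairs stayed largely with the mitochondrial gene: the copy held at most 6.44% and 0% in the first quantification. The aligned stretches can hardly be told apart, so values of the 7 mRNAs are uncertain on their own. This applies least to mt-Co1 and mt-Nd4, whose copies align over only 483 of 1545 and 876 of 1378 bases. Each of the 7 is given below alone and summed with its copy. What share of the summed reads came from chromosome 1 was not tested.

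**Figure D1:**
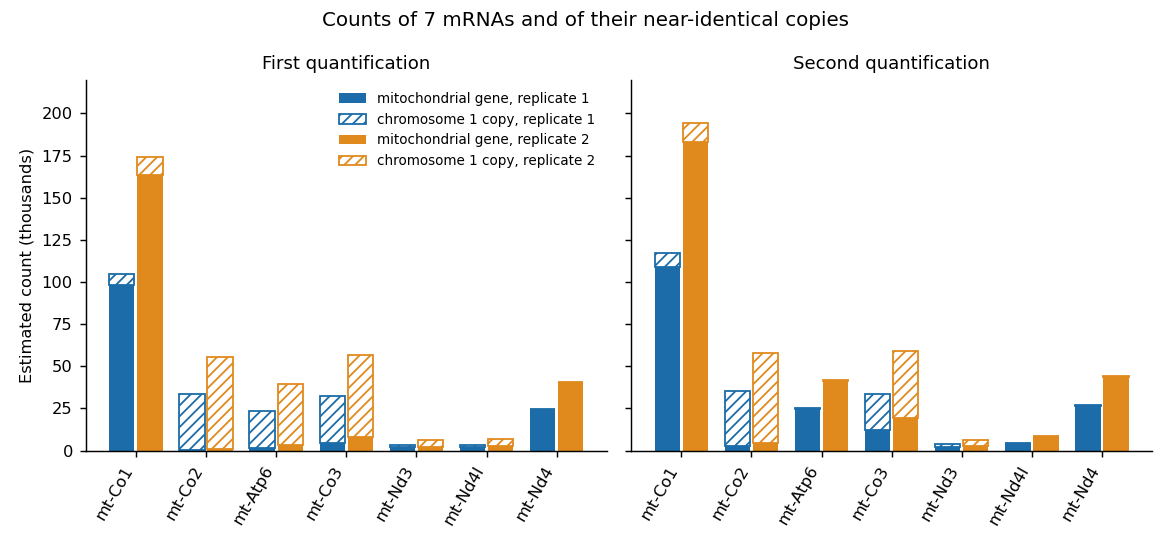
Estimated counts, in units of 1000, of 7 mitochondrial mRNAs (filled bars) and their near-identical copies on chromosome 1 (hatched, stacked on top) in replicate 1 (blue) and replicate 2 (orange), in the first (left panel) and second quantification (right panel). The stacks of mt-Co2 are almost wholly hatched in both panels, those of mt-Atp6 in the left panel only.

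Levels of the 15 mRNAs and rRNAs are given below in the first quantification, in TPM as deposited and then as count density, the counts per kilobase of annotated length per 1000000 counts over genes, which uses the whole length of each transcript. The deposited TPM divides by an effective length, which was 22.9 bases in replicate 1 and 22.4 in replicate 2 for the 204 bases of mt-Atp8. On the deposited scale the 13 mRNAs spanned 117-fold, with mt-Co2 lowest at 16.4 ± 11.0 TPM and mt-Atp8 highest at 1918 ± 989 TPM. Per kilobase and summed with their copies they spanned 7.71-fold in the first quantification and 8.08-fold in the second, with mt-Nd2 lowest and mt-Co1 highest in both. The median mRNA had 259 TPM in the mean of both libraries, and 139 TPM in the second quantification.

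**Figure D2:**
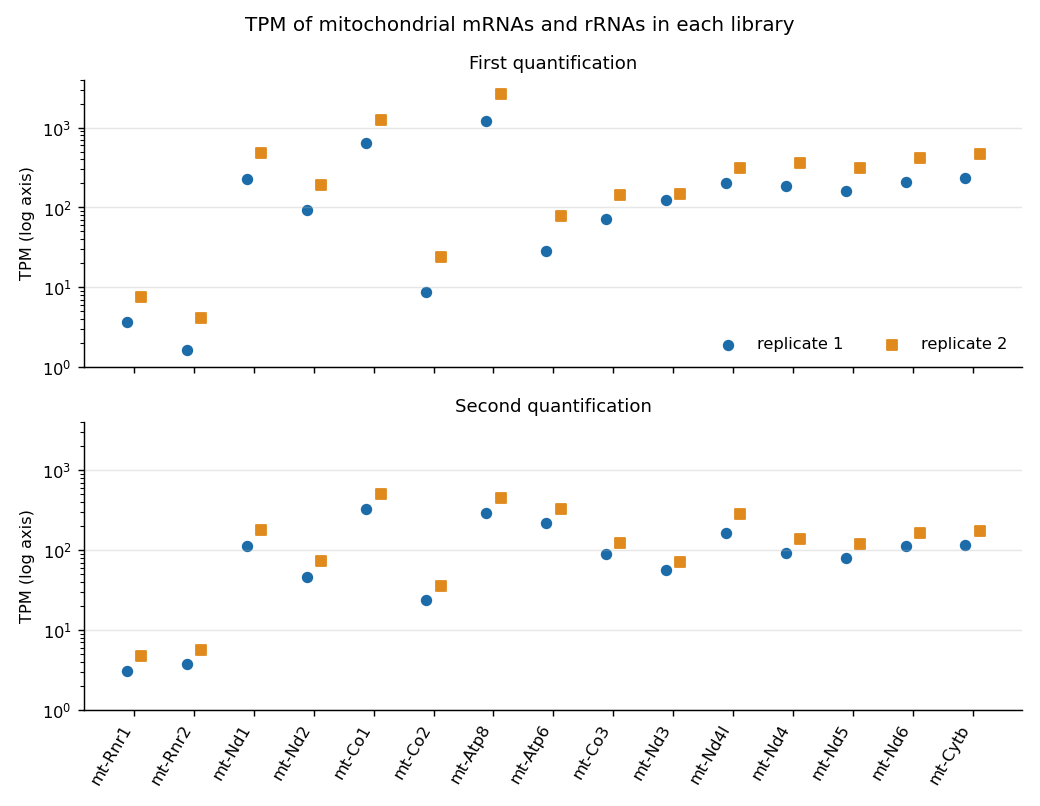
TPM of 13 mitochondrial mRNAs and 2 rRNAs in gene order, on a log axis, in replicate 1 (blue circles) and replicate 2 (orange squares), for the first quantification (top) and the second (bottom). mt-Co2 is the lowest mRNA in both panels, mt-Atp8 the highest in the upper panel and mt-Co1 the highest in the lower.

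Cytochrome c oxidase, complex IV, had the highest mitochondrial mRNAs in count density summed with the chromosome 1 copies, but on the deposited TPM scale mt-Co2 was the lowest mRNA. mt-Co1 (chrM:5328-6872, plus strand), which encodes the catalytic subunit that binds oxygen, had 98225 counts (639 TPM) in replicate 1 and 163775 counts (1265 TPM) in replicate 2. By mean TPM it ranked 28th of all genes. Its deposited posterior SD, a measure of how uncertainly reads were divided, was 0.127% and 0.107% of the count. Summed with its copy it had a count density of 1735 ± 726, the highest of the 13.

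mt-Co2 (chrM:7013-7696, plus strand), the subunit that accepts electrons from cytochrome c, had 463 counts (8.62 TPM) in replicate 1 and 1093 counts (24.1 TPM) in replicate 2. Its posterior SD relative to the count was 307% in replicate 1 and 177% in replicate 2. The deposited TPM interval, 46.6 to 147 in replicate 1 and 52.4 to 212 in replicate 2, lay above the TPM value in both. Together with Gm28661 it had 33850 and 55408 counts. Summed per kilobase it was the second highest mRNA, at a count density of 1253 ± 513.

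mt-Co3 (chrM:8607-9390, plus strand), another core subunit, had 4675 counts (71.6 TPM) in replicate 1 and 8004 counts (145 TPM) in replicate 2, against 12263 and 19248 counts in the second quantification. With Gm28437 the pair had 32146 and 56716 counts in the first quantification and 33579 and 59229 in the second, so the sums lay much closer than the gene alone. Summed per kilobase mt-Co3 came next, at a count density of 1090 ± 498. The 3 highest mRNAs on the summed scale were thus those of complex IV, and in the second quantification mt-Co1, mt-Co2 and mt-Co3 also led, at 1580 ± 600, 1070 ± 400.1 and 927 ± 391. The SDs of these 3 overlapped, since all mRNAs were higher in replicate 2, but their order was the same in each library.

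ATP synthase, complex V, has 2 mitochondrial subunits, and their mRNAs overlap. mt-Atp6 (chrM:7927-8607, plus strand), part of the proton channel, had 1502 counts (28.2 TPM) in replicate 1 and 3491 counts (77.5 TPM) in replicate 2. In the second quantification it had 24654 and 41380 counts, and its posterior SD in the first was 99.01% and 34.6% of the count. mt-Atp6 also lay below its deposited TPM interval in both libraries, 29.7 to 134 in replicate 1 and 110 to 213 in replicate 2. Summed with Gm10925 it had 23637 and 39509 counts in the first quantification against 25215 and 42144 in the second, and a count density of 890 ± 376, the fourth highest.

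mt-Atp8 (chrM:7766-7969, plus strand), a small membrane subunit of the same enzyme, has no annotated copy of 100 bases or more. It had 3247 counts (1219 TPM) in replicate 1 and 5738 counts (2618 TPM) in replicate 2. With an effective length of 48.3 and 51.3 bases, the second quantification gave 296 and 454 TPM from 3594 and 6354 counts. Counts of the 2 quantifications were thus close while TPM was not. The other mRNAs without a near-identical copy were also lower in TPM in the second quantification. Their log2 ratio of second over first TPM ran from -1.28 in mt-Cytb to -1.18 in mt-Nd6, against -2.355 in mt-Atp8. The count density of mt-Atp8 was 424 ± 194, in the middle of the 13.

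Complex III has a single mitochondrial mRNA, mt-Cytb (chrM:14145-15288, plus strand), which encodes cytochrome b. It had 25145 counts (235 TPM) in replicate 1 and 42269 counts (468 TPM) in replicate 2, with no near-identical copy and a posterior SD of 0. Its count density was 566 ± 241, the fifth highest and the highest of the 6 mRNAs without a copy.

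Complex I, NADH dehydrogenase, has 7 mitochondrial subunits, and their mRNAs lay between 225 and 548 in count density, copies included. mt-Nd1 (chrM:2751-3707, plus strand), a membrane subunit near the quinone site, had 19616 counts (230 TPM) in replicate 1 and 34915 counts (485 TPM) in replicate 2, and led the complex at a count density of 548 ± 254. mt-Nd2 (chrM:3914-4951, plus strand), one of the subunits of the proton-pumping arm, had 8850 counts (93.3 TPM) and 15457 counts (193 TPM), and was the lowest of the 13 mRNAs at 225 ± 101. mt-Nd4 and mt-Nd5 are pumping subunits too, and lay between these. The lead of mt-Nd1 holds for count density only. In TPM summed with copies mt-Nd4l led complex I, at 582 ± 348 against 357 ± 180 for mt-Nd1. The second quantification gave 225 ± 83.5 against 148 ± 47.5 on that scale.

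mt-Nd4 (chrM:10167-11544, plus strand) had 24901 counts (185 TPM) in replicate 1 and 41006 counts (362 TPM) in replicate 2, with 0 counts on its copy in the first quantification. mt-Nd5 (chrM:11742-13565, plus strand), the longest mRNA at 1824 bases, had 30307 counts (163 TPM) and 49273 counts (314 TPM). Their count densities were 459 ± 190 and 419 ± 170, a difference smaller than the spread between libraries, with mt-Nd4 the higher in both.

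The 2 shortest mRNAs of complex I, both of membrane subunits, had a more even split with the copy in the first quantification, and one that differed between libraries. mt-Nd3 (chrM:9459-9806, plus strand) had 1899 counts (123 TPM) in replicate 1 and 1893 counts (146 TPM) in replicate 2, and Gm28438 held 47.5% of the pair in replicate 1 and 69.2% in replicate 2. Summed with Gm28438 it had 3618 and 6138 counts and a count density of 269 ± 116. mt-Nd4l (chrM:9877-10173, plus strand) had 2051 counts (202 TPM) and 2708 counts (317 TPM), and Gm10222 held 39.3% and 61.0% of the pair. The pair had 3376 and 6940 counts and a count density of 335 ± 185. In the second quantification Gm10222 was listed at 0 in both libraries and mt-Nd4l had 4275 and 8508 counts.

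mt-Nd6 (chrM:13552-14070), a membrane subunit of complex I, is the only mRNA on the minus strand. It had 7191 counts (208 TPM) in replicate 1 and 12326 counts (421 TPM) in replicate 2, and a count density of 361 ± 159, within the range of the plus-strand complex I mRNAs. Its transcript holds 28.1% G and 5.97% C, while the 12 plus-strand mRNAs hold 5.88% to 16.1% G and 22.1% to 29.97% C. The strand used in counting is not given in the sources used here. RNA transcribed from the opposite strand across mt-Nd6 can therefore not be told apart from it.

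**Figure D3:**
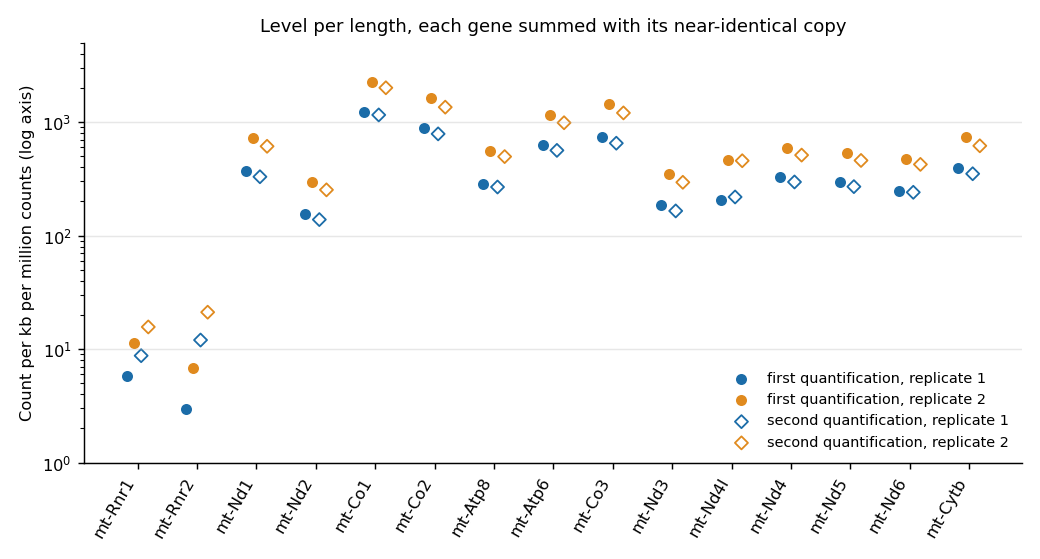
Count density (counts per kilobase per 1000000 counts over genes), on a log axis, of 13 mitochondrial mRNAs and 2 rRNAs in gene order, each mRNA summed with its near-identical copy where it has one. Filled circles are the first quantification and open diamonds the second, replicate 1 in blue and replicate 2 in orange. For the mRNAs the quantifications nearly coincide within a library, with mt-Co1, mt-Co2, mt-Co3 and mt-Atp6 on top, and both rRNAs lie far below.

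Summing a gene with its copy also changed the balance of the complexes. Of the summed counts of all 37 genes and their copies, complex IV held 53.1% ± 0.185, complex I 30.6% ± 0.176, complex V 8.36% ± 0.000252 and complex III 7.82% ± 0.00693. In the second quantification the shares were 53.2% ± 0.164, 30.4% ± 0.143, 8.25% ± 0.0136 and 7.55% ± 0.00746. Without the copies they were 45.2% ± 0.0527, 41.3% ± 0.232, 2.24% ± 0.235 and 11.0% ± 0.0268 in the first quantification. In the second, without copies, they were 43.4% ± 0.0974, 36.5% ± 0.0558, 9.97% ± 0.0378 and 9.29% ± 0.00410. Without copies the complex V share thus lay below its summed value in the first quantification and above it in the second.

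The order of the mRNAs was also closer between quantifications once copies were included. Across the 13 mRNAs of a library, which share reads and lengths, the Spearman rho between the quantifications was 0.681 in replicate 1 and 0.659 in replicate 2 for TPM. It was 0.951 and 0.967 for TPM summed with copies, and 1 and 0.995 for summed counts per kilobase. Position along the chromosome had little relation to level: over the 12 plus-strand mRNAs the rho of gene start with summed count per kilobase was -0.140 and -0.182.

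The mitochondrial rRNAs were scarce in these libraries, which had been depleted of ribosomal RNA. mt-Rnr1 (chrM:70-1024, plus strand), the 12S rRNA of the small ribosomal subunit, had 308 counts (3.62 TPM) in replicate 1 and 537 counts (7.48 TPM) in replicate 2. mt-Rnr2 (chrM:1094-2675, plus strand), the 16S rRNA of the large subunit, had 260 counts (1.65 TPM) and 541 counts (4.07 TPM). On the log2 scale their summed TPM relative to the mRNAs was -9.27. The sources used here do not say whether the depletion removed mitochondrial rRNA, and its part in these levels was not tested. The second quantification gave more counts, 550 and 940 for mt-Rnr1 and 1251 and 2100 for mt-Rnr2, and there mt-Rnr2 was the higher one per kilobase, at a count density of 16.6 ± 6.45 against 12.2 ± 4.90, less than the spread between libraries.

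The tRNAs, which carry amino acids to the mitochondrial ribosome, had no value to speak of in the first quantification: 22 of 22 had an effective length of 0 and 0 counts. Nothing about their abundance is therefore read from these zeros. The second quantification did assign fragments to them, 339 in all in replicate 1 and 555 in replicate 2. Of the 22 tRNAs 6 had a mean count of 10 or more, and all 6 were among the 8 on the minus strand. None of the 14 plus-strand tRNAs exceeded 5 counts in either library, and 3 of them, mt-Tk, mt-Tr and mt-Tl2, were at 0 in both, which allows up to 3 counts each.

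The 6 transcripts are shown because they carry this difference, with the middle 3 bases of the predicted anticodon loop in capitals, in the 7-base loop of the best stem of 5 pairs. All are on the minus strand: mt-Tp at chrM:15356-15422, mt-Te at chrM:14071-14139, mt-Ts1 at chrM:6870-6938, mt-Tc at chrM:5192-5257, mt-Tn at chrM:5089-5159 and mt-Ty at chrM:5260-5326. They are read 5′ to 3′ on that strand.
mt-Tp: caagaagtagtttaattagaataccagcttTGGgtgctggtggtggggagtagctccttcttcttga
mt-Te: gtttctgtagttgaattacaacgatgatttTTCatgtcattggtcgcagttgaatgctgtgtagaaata
mt-Ts1: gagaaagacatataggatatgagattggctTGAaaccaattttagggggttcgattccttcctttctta
mt-Tc: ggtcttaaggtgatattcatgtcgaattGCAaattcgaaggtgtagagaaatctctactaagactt
mt-Tn: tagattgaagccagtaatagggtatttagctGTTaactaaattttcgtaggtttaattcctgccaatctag
mt-Ty: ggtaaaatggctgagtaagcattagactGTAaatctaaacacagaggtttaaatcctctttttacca

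The proline tRNA mt-Tp was the highest, with 125 counts in replicate 1 and 285 in replicate 2. The glutamate tRNA mt-Te had 85 and 93 counts and the serine tRNA mt-Ts1 had 56 and 63. These 3 lie at different places: mt-Te directly adjoins mt-Nd6 on its strand, mt-Ts1 shares 3 bases with the end of mt-Co1 on the opposite strand, and mt-Tp is the last gene of the annotation. The cysteine tRNA mt-Tc had 22 and 41 counts, the asparagine tRNA mt-Tn 16 and 24, and the tyrosine tRNA mt-Ty 11 and 17. These neighbour each other between mt-Nd2 and mt-Co1, next to the alanine tRNA mt-Ta, which had 2 and 5. With the strand of counting not given, reads from the opposite strand across these genes cannot be told apart from tRNA.

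**Figure D4:**
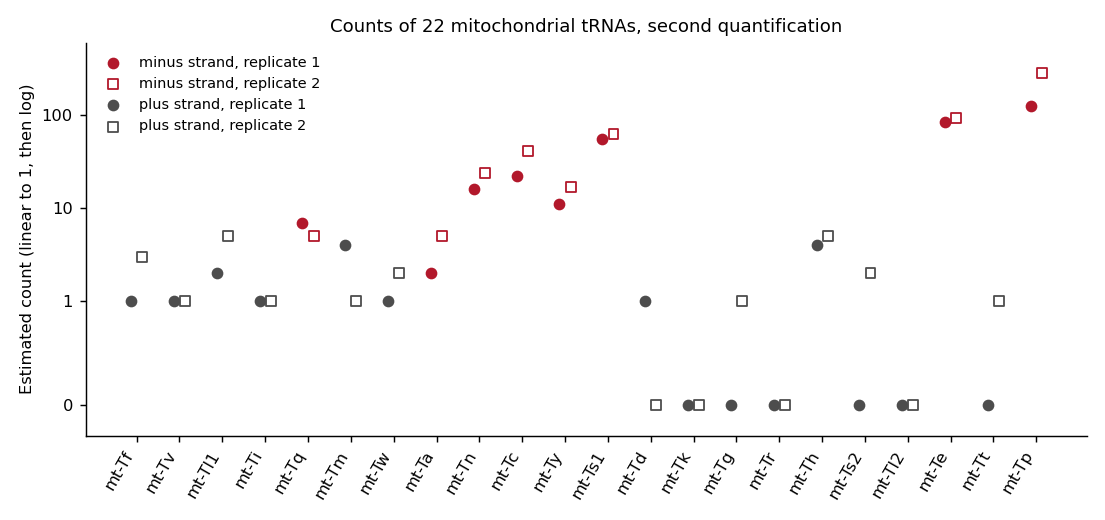
Estimated counts of the 22 mitochondrial tRNAs in gene order in the second quantification, on an axis linear to 1 and logarithmic above, in replicate 1 (circles) and replicate 2 (open squares). Minus-strand tRNAs are red and plus-strand tRNAs grey; red points of 6 genes stand at 11 to 285 counts, while no grey point exceeds 5.

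Over all classes, minus-strand genes held 3.18% ± 0.0516 of mitochondrial counts in the first quantification, all of it mt-Nd6. In the second they held 3.004% ± 0.00219, of which mt-Nd6 made up 2.89% and the tRNAs 0.113%. Summed with copies, all of which pair with plus-strand genes, the share was 2.26% ± 0.0291 and 2.44% ± 0.000441. The split between strands thus varied less between libraries than between ways of counting.

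Every measured mitochondrial gene was lower in replicate 1 than in replicate 2. After TMM scaling, the log2 ratio of replicate 1 over replicate 2 was -0.94 for the sum of the 37 genes, against a median of 0.00 over the 13392 genes called measured, those whose count averaged 10 or more. Of the 15 measured mitochondrial genes 15 were lower in replicate 1, and 5 were lower by 2-fold or more, where 6.00% of all measured genes were. Each of 5 scalings gave the same 15, which adds no support, since a scaling shifts all genes alike. Across them the log2 ratio of the sum ran only from -0.94 to -0.89. All 15 had a mean count of at least 100, and of genes above that limit 1.31% were lower by 2-fold or more. In the second quantification 21 were measured, all 21 lower in replicate 1 and 2 by 2-fold or more, where 14.4% of genes were. The 2-fold limit runs through the middle of the mitochondrial values: 14 of 15 were 1.5-fold or more lower in replicate 1, where 10.5% of measured genes were.

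The ratios of the mRNAs lay close together once copies were included. For the 6 without an annotated near-identical copy the log2 ratios ran from -1.03 in mt-Nd1 to -0.90 in mt-Nd5. Alone, the 7 with a copy ran from -1.43 in mt-Co2 and -1.41 in mt-Atp6 to -0.60 in mt-Nd4l and -0.19 in mt-Nd3. Summed with its copy mt-Nd3 had -0.96, mt-Co2 -0.91 and mt-Atp6 -0.94, so these departures were not seen in the sums. mt-Nd4l had -1.23 summed, with a 95% counting interval that does not reach those of the other summed mRNAs, and -1.10 in the second quantification, the lowest mRNA there too. The rRNAs had -0.996 for mt-Rnr1 and -1.25 for mt-Rnr2, whose counting intervals overlapped. Ratios of tRNAs in the second quantification ran from -1.30 in mt-Tp to -0.24 in mt-Te, and the counting intervals of 4 of the 6 included 0.

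**Figure D5:**
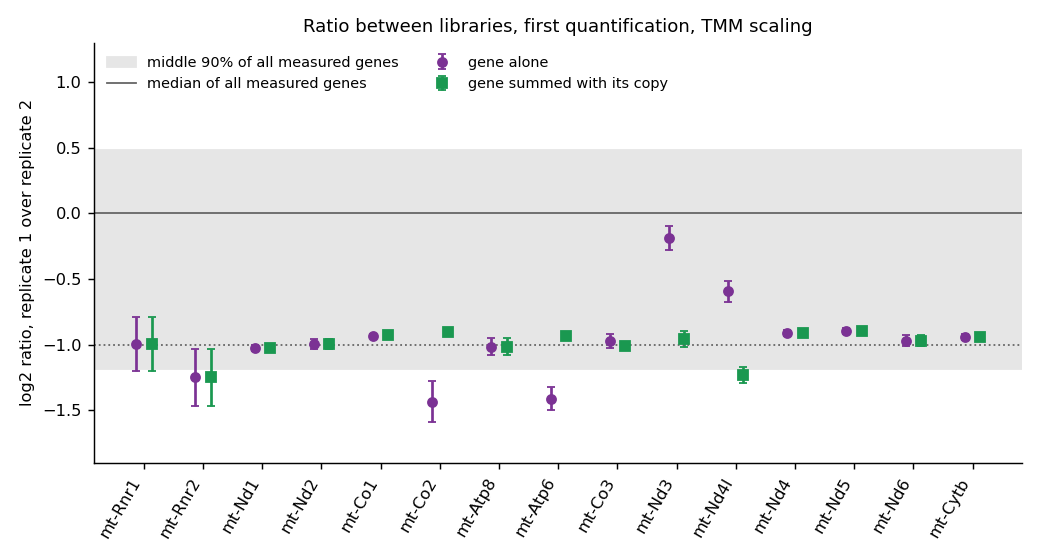
Log2 ratio of replicate 1 over replicate 2 after TMM scaling in the first quantification for 13 mRNAs and 2 rRNAs in gene order, alone (purple circles) and summed with the near-identical copy (green squares). Bars are 95% counting intervals, the grey band the middle 90% of all measured genes, -1.18 to 0.49, and the dotted line a 2-fold lower value in replicate 1. Summed values gather near the dotted line and all lie below the median of all genes.

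Within the mitochondrial set the composition, in percentage points, hardly differed between libraries. As a share of the summed mRNA counts, mt-Co1 held 32.7% in replicate 1 and 32.3% in replicate 2, mt-Co2 10.5% and 10.3%, mt-Co3 10.02% and 10.5%, and mt-Nd5 9.45% and 9.13%. The largest change among the 13 was 0.486 percentage points, in mt-Co3, and the median change 0.166. Percentage points give little weight to scarce mRNAs. mt-Nd4l held 1.05% in replicate 1 and 1.29% in replicate 2, and 1.23% and 1.46% in the second quantification.

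Other RNAs differed between the libraries as well. Of 10 RNAs known to be retained in the nucleus 7 were measured and 6 of these were 2-fold or more lower in replicate 1, with a median log2 ratio of -2.02, where 6.00% of all measured genes were lower by 2-fold or more. Malat1 had 158 TPM in replicate 1 and 799 in replicate 2, Neat1 14.8 and 64.6, and Rn7sk 35849 and 82428. The 9 macrophage markers had a median log2 ratio of -0.39 and ran from -0.62 in Itgam to 0.09 in Lyz2 and Tyrobp, and none passed 2-fold. The 4 neutrophil markers measured had a median of -0.46 and ran from -1.66 in Mpo to 0.19 in S100a8; summed over all 6 markers they had 29.2 TPM in replicate 1 and 30.3 in replicate 2. The part of nuclear RNA, of mitochondria carried into the fraction or of other handling in the mitochondrial difference was not tested. In such bulk RNA, fewer organelles or cells and less RNA in each cannot be told apart.

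Nuclear genes for the machinery that makes mitochondrial RNA had median log2 ratios around 0, with single genes on either side. Of 17 listed genes of mitochondrial transcription and DNA maintenance 9 reached 1 TPM. The median log2 ratio of the 15 measured was 0.11, with a range of -0.37 to 0.51. The most abundant were Ssbp1, the mitochondrial single-stranded DNA-binding protein (5.22 TPM in replicate 1 and 4.62 in replicate 2), Mterf3 (3.76 and 3.79), Polg, the DNA polymerase (2.45 and 3.40), and Polrmt, the RNA polymerase (1.62 and 2.13). Tfam, which packages the DNA and starts transcription, had 1.88 and 1.60 TPM.

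Of 29 genes of RNA processing, stability and decay 22 reached 1 TPM, with a median log2 ratio of 0.03 and a range of -0.46 to 0.48. The highest were Rexo2, an oligoribonuclease (15.3 ± 0.375 TPM), Slirp, the partner of Lrpprc in stabilising mitochondrial mRNA (16.1 and 13.2), Grsf1 of the RNA granules (10.1 and 9.53) and Hsd17b10, a subunit of mitochondrial RNase P (9.70 and 8.53). Of 17 translation factors and tRNA-modifying enzymes 10 reached 1 TPM, with a median log2 ratio of 0.01 and a range of -0.41 to 0.35. Tufm, the elongation factor that delivers tRNAs to the ribosome, had 7.26 and 8.31 TPM, the elongation factor Gfm1 4.78 and 6.02, the membrane insertase Oxa1l 5.43 and 4.96, and the initiation factor Mtif2 3.40 and 3.50. None of the measured genes of the 3 lists was past 2-fold in either direction, where 6.95% of all measured genes were.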

How the data were processed

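The 2 libraries of 1 group hold RNA of the cytosolic fraction without most ribosomal RNA. Tables used mm10 and annotation M21 and were made per library, the first quantification from transcriptome alignments and the second directly from reads, per the file headers and readme files. Not given in the sources used here are the aligner, quantifiers, versions and counting strand. Expected counts, estimated fragments that need not be whole, were deposited by the authors without normalization in both quantifications. The authors' deposited TPM is scaled to a fixed sum over all entries of a table. Scores used here, also deposited by the authors, are the posterior SD of each count, the effective length and the bounds of the TPM interval, whose level is not stated.

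The first quantification also held 97 named entries and 26248 numbered entries that are no annotated gene; they held 0.251% and 0.204% of the count in replicate 1 and replicate 2 as named entries, and 0 and 0.95 counts as numbered ones, and were left out of totals. In the second, transcripts were summed per gene, and 86 genes had no value.

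Symbols, coordinates and sequences came from GENCODE M21. Nuclear copies were found with BLAST 2.17.0 (megablast, E-value 1e-20). Rounded expected counts of genes averaging at least 10 gave TMM factors with edgeR 4.0.16 under R 4.3.3, with DESeq2 1.42.0 size factors as an alternative; neither was used for a test. Ratios had 0.5 added to each count and 95% Clopper-Pearson intervals, which cover counting error only. Python 3.11.15 ran the other steps, with matplotlib 3.10.9, scipy 1.17.1, pandas 2.3.3 and numpy 2.4.6. Ratios and the copy search were tested on simulated data. Counts per kilobase used annotated transcript length.

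Errors are SDs over 2 libraries. Counts of 10 or more and folds of 2 or 1.5 define measured and called genes. All 37 members could be named, tRNAs singly from a mean count of 10 and otherwise by counts and range (mt-Ta, mt-Tk, mt-Tr and mt-Tl2 were named after their values were seen), the 4 most abundant of each list, and Tfam, Itgam, Tyrobp, Mpo and S100a8 after their values were seen. Members and lists were chosen with earlier results of these data known. Sums with copies were an alternative chosen after seeing the data. The other alternatives were the second quantification, posterior mean columns, totals over other entries, other scalings, thresholds and leaving out a library.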

Additional observations from a re-analysis of the deposited data

How the results depend on the processing

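Of 76 alternative values 42 lay within the SD of the libraries, within 1.5 times for counts of genes, or within the 95% counting interval for the replicate ratio, and 34 did not. For a mean of 2 libraries, either library alone always lies within the SD, so leaving out a library was bound to pass there. Only the replicate ratio and the log2 of rRNA over mRNA could change direction, and neither did. Leaving out each library in turn gave 0.411 to 0.764% for the share of counts, 0.341 to 0.685% for the share of TPM, 185 to 317 for the median TPM of mRNAs and 6.76 to 7.14 for the log2 span of mRNA TPM (6.87 with both). The rRNA share stayed at 0.248 to 0.281%, the minus-strand share at 3.15 to 3.22%, the log2 of rRNA over mRNA at -9.34 to -9.21, tRNAs at 0 and detected genes at 15. The replicate ratio cannot be computed without a library, and for tRNAs alone it has no value in the first quantification.

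The second quantification gave 0.229% of TPM, a median mRNA of 139 TPM, a log2 span of 3.81, a log2 of rRNA over mRNA of -8.01, an rRNA share of 0.635%, a tRNA share of 0.118%, a minus-strand share of 3.004%, a replicate ratio of -0.86 and 2 genes past 2-fold. Posterior means gave a log2 span of 4.07, -9.38 for rRNA over mRNA and a minus-strand share of 2.97%. Counts per kilobase gave a log2 span of 6.21 and -8.61 for rRNA over mRNA. Over protein-coding genes only, the share of TPM was 2.29% and the median mRNA 1164 TPM.

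Sums with copies, chosen after seeing the data, gave 0.816% of TPM, and for the median mRNA 359 TPM in the first and 148 TPM in the second quantification. In the same order the log2 span was 3.74 and 3.21, and the minus-strand share 2.26% and 2.44%. The sums gave -9.94 for rRNA over mRNA in the first quantification, and in the second a replicate ratio of -0.86 with 2 genes past 2-fold. By library totals the ratio was -0.89 with 3 genes past 2-fold, by totals over nuclear-encoded protein-coding genes -0.89 with 3, and by TMM with no filter -0.92. With DESeq2 size factors it was -0.94, with 7 genes past 2-fold. For rRNAs alone it was -1.12, and at 1.5-fold 14 genes passed. The cause of these differences was not tested. No paired analysis was possible because there is 1 group. Depth is not the limit for mRNAs, whereas most tRNAs rest on fewer than 10 counts.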
